A study of Mus musculus with 8 samples.

Results

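The regions described here are the wide autosomal regions of a left ventricular list of DNA enriched for 5-hydroxymethylcytosine (5hmC), that is, regions that exceed the commonest width of the list, 2.54 kb, and share no base with a hippocampal region list of the same study. Of 11664 ventricular regions, 1484 met this rule, which is 12.9% of the 11509 autosomal ones. A further 292 wide autosomal regions overlapped a hippocampal region by at least 1 bp and were left out. The study profiled C57BL/6 mice 20 weeks after sham exposure (0 Gy) or 1 Gy of protons. DNA of several mice was pooled, and the ventricle gave 2 sham pools and 2 irradiated pools, each sequenced as 1 library. The design text names 5 mice per treatment group, but no source used here says how they were divided between pools. A pool is therefore the unit of replication, and p-values measure only the spread between pools.

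5hmC is made when TET enzymes oxidise 5-methylcytosine, the main methylated base of mammalian DNA. It is both an intermediate of DNA demethylation and a mark in its own right, found mostly in gene bodies and at enhancers of active genes. It is abundant in brain and less so in heart muscle. An antibody against 5hmC pulls down fragments in which the base is dense, so a stretch with many reads is a stretch of dense 5hmC only to the extent that the pull-down worked alike in each library. The tissue is a mixture of cardiomyocytes, fibroblasts, endothelial and blood cells, and a change in cell types cannot be told apart from a change within cells.

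Counts in the listed regions were low and uneven. The ventricular libraries held 49649 to 111035 counts over all regions of the list, with sham pool 2 lowest and irradiated pool 2 highest. They are called the shallowest and the deepest library by these counts, since the numbers of sequenced reads were not used here. By counting error alone, an observed 0 is compatible with as many as 3 counts. That is 27.02 CPM (counts scaled to the library total) in the deepest and 60.4 CPM in the shallowest library. Irradiated pool 1 stood apart from the other 3 libraries in its ratio of wide to 2.54-kb regions, and results that rest on it are given with and without it.

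The wide regions covered 4.65 Mb, against 23.5 Mb for the 9255 autosomal regions of exactly 2.54 kb. Their widths ran from 2545 to 7297 bp, with a median of 2945 bp and quartiles of 2696 and 3384 bp. Their number fell with width: 544 regions measured 2545 to 2798 bp, 432 measured 2799 to 3180 bp, 327 went up to 3.82 kb and 166 up to 5.09 kb. The remaining 15 (1.01%) were more than 2 times as wide as the commonest width. The files do not record how many peaks were joined into a region.

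**Figure D1:**
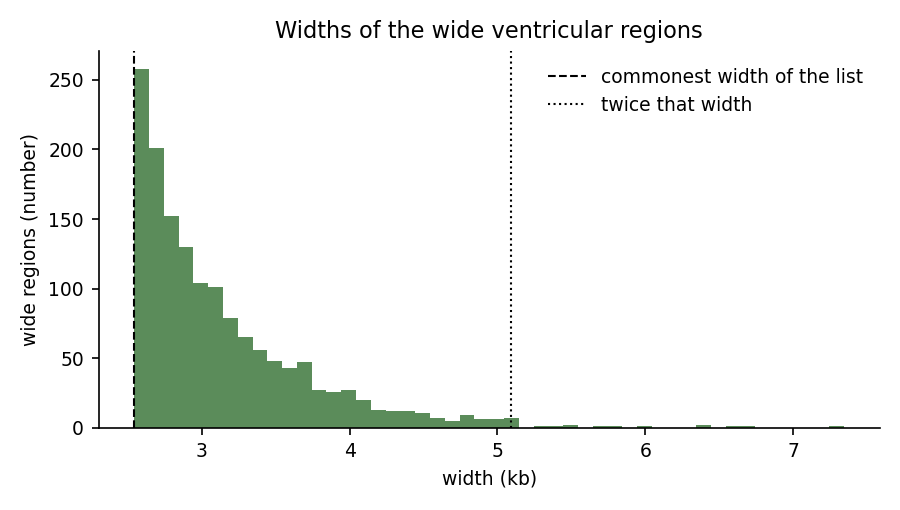
Number of wide ventricular regions (y axis) by width in kb (x axis, bins of 0.1 kb) for all 1484 regions, with the commonest width of the list as a dashed line and 2 times that width as a dotted line. Counts fall from just above the dashed line, and 15 regions lie beyond the dotted one.

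None of the 5 widest regions was among the 5 most densely covered ones. The widest of all, on chromosome 13 at 67024982 to 67032278 (mm9; 7297 bp), had 9 counts in sham pool 1, 3 in sham pool 2, 15 in irradiated pool 1 and 11 in irradiated pool 2. In raw counts the irradiated pools were the higher ones, but in TMM-scaled CPM the groups (188 ± 116 and 450 ± 278, SD, n = 2) overlapped. TMM-scaled CPM divide by a TMM-adjusted library size summed over the regions that passed the low-count filter. They therefore run higher than CPM on the library total. The highest value of this region was 2.06 counts per kb. On chromosome 18 at 44785878 to 44792615 (6738 bp) sham pools 1 and 2 had 15 and 4 counts, irradiated pools 1 and 2 had 5 and 18. The groups overlapped, and each held a high and a low pool. On chromosome 2 at 76365830 to 76372382 (6553 bp) sham gave 7 and 6 counts, irradiation 2 and 25. The irradiated pools lay on either side of the sham pools. On chromosome 16 at 78336446 to 78342887 (6442 bp) each sham pool had 12 counts, and the irradiated pools had 14 and 4. The region next to it on the list was 0.727 kb away. On chromosome 17 at 26719694 to 26726049 (6356 bp) sham gave 27 and 13 counts, irradiation 2 and 21, so here too the groups overlapped. Averaged over the 4 libraries these 5 regions had 15.2 to 31.6 CPM per kb of width, and only the one on chromosome 17 exceeded the median of 26.9 over all wide regions. None of the 5 could be placed in a gene, since an annotation of build mm9 was not used here.

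The next question was whether wide regions carry more reads for their length than regions of the commonest width. In sham pool 1 the wide regions together held 2.62 counts per kb and the 2.54-kb regions 2.56. In sham pool 2 the values were 1.47 and 1.54 counts per kb, and in irradiated pool 2 they were 3.66 and 3.46. In these 3 libraries the ratio of the summed densities was 0.955 to 1.06. Irradiated pool 1 differed: it had 1.69 counts per kb in wide regions and 3.09 in the 2.54-kb regions, a ratio of 0.547. The typical region gave another picture, since the sums include a few 2.54-kb regions with up to 8347 counts in a library. The median over regions in sham pool 1 was 2.14 counts per kb for wide and 0.786 for 2.54-kb regions. In sham pool 2 the medians were 0.647 and 0, and in irradiated pool 2 they were 3.34 and 1.18. In irradiated pool 1 the order was the other way round, with 1.51 for wide and 3.54 for 2.54-kb regions. Over the 4 libraries the mean log2 ratio of the sums was -0.21 (two-sided exact sign-flip permutation test, p = 0.75, Benjamini-Hochberg adjusted over 4 such tests 1.00). With 4 libraries this test cannot give a p below 0.13. Without irradiated pool 1 the mean was 0.02, so the sign of the mean rests on that library.

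The comparison depends on which 2.54-kb regions are used. All wide regions described here lie off the hippocampal list, whereas 971 of the 9255 regions of 2.54 kb (10.5%) overlap it. Those 971 include all 7 autosomal 2.54-kb regions whose mean CPM exceeds the median region's by a factor above 20, a level that none of the 1484 wide regions reached. Against the 8284 regions of 2.54 kb off the hippocampal list, the wide regions had 1.30 times the counts per kb in sham pool 1 (2.62 against 2.01). The ratio was 1.52 in sham pool 2 (1.47 against 0.971) and 1.30 in irradiated pool 2 (3.66 against 2.82). In irradiated pool 1 it was 0.573 (1.69 against 2.95). The mean log2 ratio turned to 0.14 (exact sign-flip permutation test, p = 0.75), and to 0.45 without irradiated pool 1. Relative to the 292 wide regions that did overlap the hippocampal list, those off it held 0.376 to 0.772 times the summed counts per kb. Those sums include single regions with up to 548 counts in a library. By the median over regions, wide regions off the list were lower in both sham pools (2.14 against 3.06 and 0.647 against 1.13 counts per kb). The medians were 1.51 against 1.49 in irradiated pool 1 and 3.34 against 3.53 in irradiated pool 2.

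**Figure D2:**
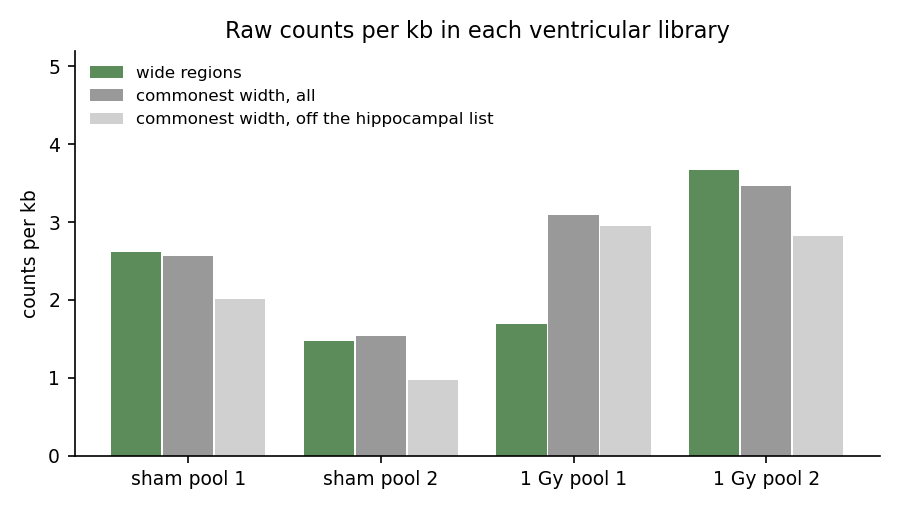
Summed raw counts divided by summed width, in counts per kb (y axis), for each of the 4 ventricular libraries (x axis), in the wide regions, in all autosomal regions of the commonest width and in those of that width off the hippocampal list. Each bar is 1 library and has no error bar. The wide regions lie above the off-list regions in both sham pools and in 1 Gy pool 2, and below them in 1 Gy pool 1 (1.69 against 2.95).

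The wide regions were split by width into 4 classes of about equal number. In sham pool 1 the narrowest class (373 regions, 2545 to 2696 bp) held 2.83 counts per kb and the widest class (371 regions, 3385 to 7297 bp) 2.35. In sham pool 2 both held about the same, 1.34 and 1.35. In irradiated pool 1 the value went from 1.95 to 1.52 and in irradiated pool 2 from 4.03 to 3.43. The widest class was thus lower than the narrowest in 3 of 4 libraries. The 34 regions that exceed the commonest width by at most 10 bp held 2.00 counts per kb in irradiated pool 1, already far below the 3.09 of the regions of exactly that width. Their values were 2.78, 0.946 and 4.19 in sham pool 1, sham pool 2 and irradiated pool 2. The 478 autosomal regions narrower than the commonest width measured 1072 to 2543 bp, with an upper quartile of 2400 bp, so most of them lie well away from it. They held 3.03, 1.48, 2.65 and 4.69 counts per kb in sham pool 1, sham pool 2, irradiated pool 1 and irradiated pool 2. Across the 1484 wide regions the Spearman correlation of width with the summed count was 0.28 and with the summed count per bp -0.15; these are descriptions over regions that share their libraries, and width itself is part of both measures.

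**Figure D3:**
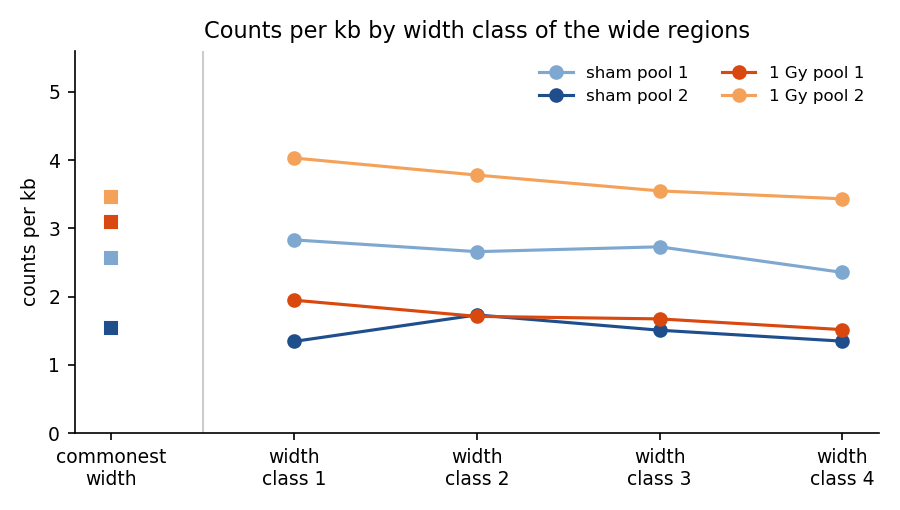
Counts per kb (y axis) of the wide regions in 4 width classes from narrow to wide (circles joined by lines) and of all autosomal regions of the commonest width (squares), with 1 colour per ventricular library. The widest class lies below the narrowest in both 1 Gy pools and in sham pool 1, and 1 Gy pool 1 drops from 3.09 at the commonest width to 1.95 in the narrowest class of the wide regions.

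Wide regions were covered by more libraries than regions of the commonest width. A count in every one of the 4 libraries was found in 448 of 1484 wide regions (30.2%) and in 1055 of 9255 regions of 2.54 kb (11.4%). At the other end, 42 wide regions (2.83%) held counts in a single library, against 1387 (15.0%) of the 2.54-kb regions. At least 5 counts in 2 or more libraries were reached by 81.5% and 56.6%. The share went up with width: in the narrowest class of the wide regions, at most 2696 bp, 80 of 373 (21.4%) had counts in all 4 libraries, and in the widest class 170 of 371 (45.8%). The part of region length in the difference from the 2.54-kb regions was not tested. Without irradiated pool 1, 41.1% of wide and 16.9% of 2.54-kb regions had counts in all 3 remaining libraries. Among the 292 wide regions that overlap the hippocampal list, 126 (43.2%) had counts in all 4 libraries and 4 (1.37%) in a single one. At least 5 counts in 2 or more libraries were reached by 86.3% of them. These lists were drawn up from the same reads, so the shares describe the list and carry no test.

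**Figure D4:**
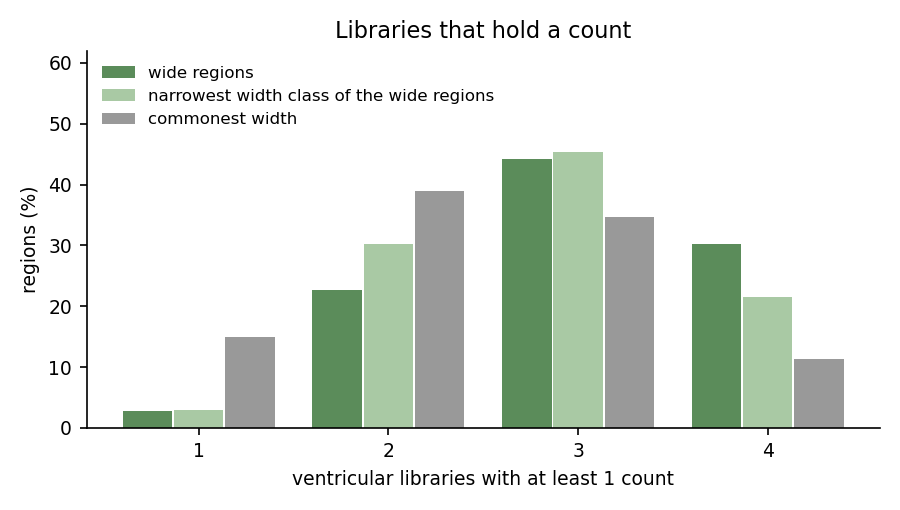
Share of regions in percent (y axis) by the number of ventricular libraries with at least 1 count (x axis), for all wide regions, their narrowest width class and the autosomal regions of the commonest width. The wide regions peak at 3 libraries (44.3%), the regions of the commonest width at 2 (39.0%).

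Library by library, the share of wide regions with at least 1 count was 78.6% in sham pool 1 (95% exact Clopper-Pearson interval 76.5 to 80.7), where 57.9% of 2.54-kb regions held one. It was 60.9% (58.4 to 63.4) against 42.1% in sham pool 2, and 84.97% (83.1 to 86.8) against 62.2% in irradiated pool 2. In irradiated pool 1 it was 77.3% (75.1 to 79.4) against 80.2%, the one library in which wide regions were filled less often. PCR copies are not independent molecules, so these intervals cover counting error alone. With each wide region scaled to the commonest width, the difference was 19.4, 16.9 and 21.9 percentage points in sham pool 1, sham pool 2 and irradiated pool 2, and -4.05 in irradiated pool 1. The mean of 13.5 percentage points, higher in 3 of 4 libraries, had an exact sign-flip permutation p of 0.25 (adjusted over the 4 tests 1.00), and it was 19.4 without irradiated pool 1. The region list was drawn up from the same reads, so the difference and its p describe that list and give no independent support.

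The library with the most reads in a region also differed between the classes. Irradiated pool 2 led in 634 wide regions (42.7%), sham pool 1 in 406 (27.4%), irradiated pool 1 in 215 (14.5%) and sham pool 2 in 160 (10.8%), with ties in the other 69. Among 2.54-kb regions irradiated pool 1 led in 4018 (43.4%). Scaled to CPM, it led in 14.3% of wide and 42.9% of 2.54-kb regions. It led in 8.22% of the wide regions that overlap the hippocampal list and in 22.2% of autosomal regions narrower than the commonest width. Of the 1387 regions of 2.54 kb with counts in a single library, 959 held them in irradiated pool 1, against 15 of the 42 such wide regions. A typical wide region also leaned less on its leading library, which supplied a median of 57.9% of its counts against 68.4% in 2.54-kb regions. In wide regions that overlap the hippocampal list this median was 54.2%. The median summed count was 28 in wide and 21 in 2.54-kb regions, and its part in these shares was not tested. The distribution of counts in irradiated pool 1 had a step among the 2.54-kb regions, where 408 had 8 counts and 872 had 9. Among the wide regions 81 had 8 counts and 75 had 9. In this pool 51.5% of 2.54-kb regions and 23.6% of wide regions held 9 counts or more. The share was 22.6% in wide regions that overlap the hippocampal list and 28.5% in regions narrower than the commonest width. No source used here describes the peak calling.

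In each of the 5 densest wide regions irradiated pool 1 had the fewest counts. On chromosome 11 at 3087937 to 3090647 (2711 bp), the highest at 98.2 CPM per kb, sham gave 32 and 13 counts, irradiation 6 and 38. The groups overlapped. This region lies 1.61 kb from its nearest ventricular neighbour and 3.05 kb from a hippocampal region. On chromosome 5 at 54048177 to 54051016 (2840 bp) sham gave 6 and 29 counts, irradiation 5 and 15. Sham pool 2, the shallowest library, held the most reads there. On chromosome 19 at 7113139 to 7116021 (2883 bp) sham gave 20 and 23 counts, irradiation 3 and 12, so that both irradiated pools lay lower. On chromosome 10 at 110629428 to 110632376 (2949 bp) the counts were 33 and 10 against 0 and 28, and on chromosome 3 at 37571856 to 37574657 (2802 bp) they were 6 and 30 against 0 and 13. In both, irradiated pool 1 stood at 0. These 5 regions were picked for their level, which ran from 70.9 to 98.2 CPM per kb, and it is given as a description.

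The best-filled wide regions were chosen by their lowest library. On chromosome 8 at 12483322 to 12488457 (5136 bp) all libraries held at least 15 counts, with 23 and 15 after sham and 18 and 27 after irradiation. No other wide region reached 10 in every library, and 15 regions of 2.54 kb did. The next 3 wide regions tied at a lowest count of 9, and 2 of them are given first because their mean CPM per kb was higher. In TMM-scaled CPM the chromosome 8 region measured 609 ± 115 in sham and 699 ± 108 in irradiated pools (SD, n = 2 each). The difference was smaller than the spread (log2 fold change 0.20, edgeR adjusted p = 1.00). On chromosome 19 at 5606946 to 5609963 (3018 bp) sham gave 24 and 9 counts and each irradiated pool 10, so the groups overlapped. On chromosome 2 at 92490437 to 92493503 (3067 bp) sham gave 16 and 13 counts, irradiation 9 and 10. Both irradiated pools lay lower there, by a log2 fold change of -0.60 that did not pass (edgeR adjusted p = 1.00). The region left out by the tie, on chromosome 11 at 115959991 to 115963192 (3202 bp), had 10 counts in each sham pool and 9 and 13 after irradiation. At least 5 counts in every library were found in 72 wide regions (4.85%) and in 115 regions of 2.54 kb (1.24%).

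**Figure D5:**
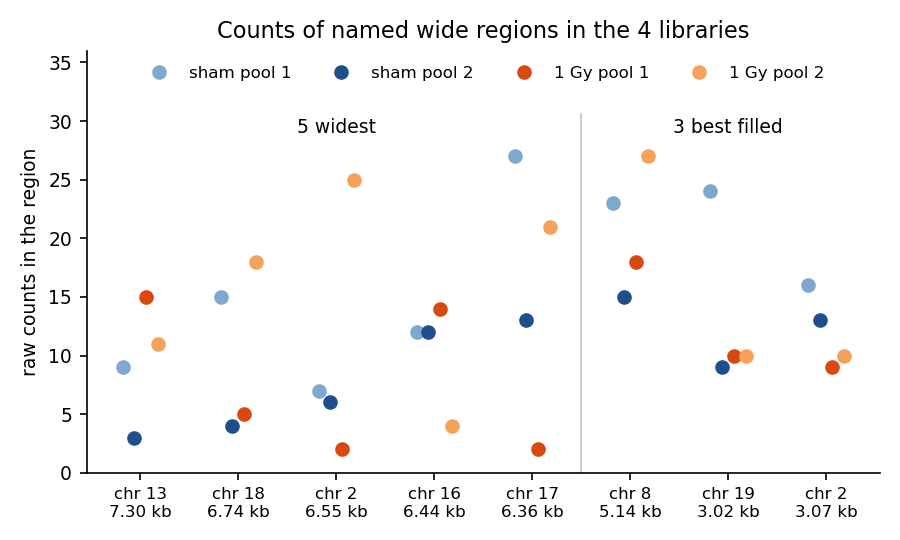
Raw counts (y axis) in each of the 4 ventricular libraries (coloured points) for the 5 widest and the 3 best-filled wide regions (x axis, chromosome and width). Sham and 1 Gy points interleave in most regions, and the chromosome 8 region has all 4 points at 15 or above.

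Proton exposure was the comparison the study was built for. The wide regions held 15.1% and 14.2% of autosomal counts in the sham pools and 9.21% and 15.6% after irradiation. The means were 14.6% ± 0.672 for sham and 12.4% ± 4.53 for 1 Gy (SD, n = 2). The groups overlapped and the difference of -2.23 percentage points was within the spread (two-sided exact permutation test, p = 1.00, adjusted 1.00). Without irradiated pool 1 it was 0.978. The log2 ratio of counts per kb, wide to 2.54-kb regions, differed between doses by -0.38 (exact permutation p = 1.00, adjusted 1.00) and by 0.10 without irradiated pool 1. Pools of 2 against 2 cannot give an exact p below 0.33.

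Region by region, edgeR's quasi-likelihood test over the whole ventricular table called no region at a Benjamini-Hochberg false discovery rate of 0.05, a background of 0%, and so none of the wide ones. The median SE of a log2 fold change over the tested regions was 2.38, so even large changes could fail to pass. Of the wide regions 475 passed the filter on low counts (32.0%, against 16.5% of the 2.54-kb regions), and 8 of them (1.68%) had an unadjusted p under 0.05, near the 2.53% of all 2252 tested regions. DESeq2 called none either, with 22 of 1484 wide regions (1.48%) at an unadjusted p under 0.05, near the 1.41% of all 11664 regions. The median log2 fold change of the tested wide regions was 0.08 and that of all tested regions 0.20. These medians depend on the scaling and on the filter. DESeq2-type size factors moved the median of all tested regions by 0.27. Without the filter on low counts, edgeR gave a median of 0.015 for the wide regions and 0.88 for all 11664 regions. DESeq2 over the same 11664 regions gave 0.15 and 1.12.

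By direction alone under TMM, 326 of the 1484 wide regions (22.0%) had the irradiated pools above both sham ones, where the whole list gives 23.7%. In 125 (8.42%) they lay below, where it gives 5.80%. Among the 475 that passed the filter the order of these numbers was the other way round, with 46 higher (9.68%, all tested regions 10.3%) and 83 lower (17.5%, all tested regions 18.3%). Both shares of the tested ones were thus close to those of all tested regions. Over all wide regions, DESeq2-type size factors gave 372 higher (25.1%, list 25.5%) and 103 lower (6.94%, list 4.90%). With scaling by total counts the numbers were 227 higher (15.3%, list 20.1%) and 193 lower (13.0%, list 8.27%), so higher regions made up 72.3% of both under TMM, 78.3% under DESeq2-type size factors and 54.0% under total counts. Without sham pool 1 the remaining pools gave 603 higher (40.6%, list 35.0%) and 275 lower (18.5%, list 12.03%). Without sham pool 2 they gave 473 (31.9%, list 31.1%) and 474 (31.9%, list 22.6%). Without irradiated pool 1 they gave 631 (42.5%, list 38.0%) and 260 (17.5%, list 14.6%). Without irradiated pool 2 they gave 555 (37.4%, list 56.9%) and 323 (21.8%, list 12.3%). The share of lower regions was above the list's with each library left out, and that of higher regions was below it without irradiated pool 2 only. A region can be lower only if every sham pool compared holds a count in it. Sham pool 2 held one in 60.9% of wide and 42.1% of 2.54-kb regions. The part of this in the shares was not tested, and the filter on low counts was not applied to these numbers. With 1 pool against 2 fewer values have to line up, so these numbers are larger by construction.

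The wide regions with the smallest p for a higher value all stood at 0 in both sham pools. Their folds are therefore lower bounds for counting error alone, against a floor of 3 counts per library. They leave out the spread between pools and set no limit on a dose difference between pools. On chromosome 12 at 104600242 to 104603332 (3091 bp) irradiation gave 20 and 15 counts, a value at least 6.18-fold higher with TMM and 3.76-fold with total counts. The bound was 3.54 with TMM without irradiated pool 1. On chromosome 16 at 87927540 to 87931212 (3673 bp) they held 12 and 21, at least 5.12-fold and 3.37-fold higher. On chromosome 14 at 61133192 to 61135993 (2802 bp) they held 11 and 21, at least 4.90-fold and 3.25-fold higher. The remaining 2 were on chromosome 8 at 48276234 (2580 bp; 23 and 34 counts) and chromosome 5 at 150419903 (3556 bp; 17 and 23 counts). In all 5 the irradiated pools exceeded the sham pools. These regions were chosen for a small p in this direction, so the direction carries no support of its own. Their unadjusted p ran from 0.00704 to 0.0525 and each edgeR adjusted p was 1.00.

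Those with the smallest p for a lower value were at 0 in both irradiated pools, except for the one on chromosome 15. Bounds for regions at 0 use the same floor and likewise leave out the spread between pools. On chromosome 8 at 129434521 to 129437263 (2743 bp) the sham pools held 25 and 14 counts and the irradiated pools 0, at least 6.26-fold lower under TMM and 4.79-fold with DESeq2-type size factors. On chromosome 5 at 14677436 to 14680009 (2574 bp) the sham pools held 19 and 16, at least 5.71-fold and 4.32-fold lower. On chromosome 9 at 6593873 to 6596506 (2634 bp) they held 16 and 18, at least 5.61-fold and 4.20-fold lower, and the nearest hippocampal region was 558 kb away. The region on chromosome 1 at 189616845 (3438 bp) had 22 and 29 sham counts and none in irradiated pools. On chromosome 15 at 38335465 to 38338758 (3294 bp) sham gave 26 and 14 counts, irradiation 1 and 2. In TMM-scaled CPM this was 636 ± 203 against 44.6 ± 2.13 (SD, n = 2). Its log2 fold change was -3.72 (SE 1.75, unadjusted p = 0.0659, edgeR adjusted p = 1.00), and it ran from -4.15 to -3.83 with each library left out in turn. All 5 were chosen by p on these pools, so their direction carries no support of its own.

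Along the genome the wide regions sat closer to other ventricular regions than 2.54-kb regions did. The median distance to the next ventricular region was 30.8 kb, against 47.4 kb for 2.54-kb regions off the hippocampal list, and 353 of them (23.8%) had a neighbour within 10 kb, against 17.4%. The nearest hippocampal region lay at a median of 16.5 kb against 24.7 kb, and within 10 kb for 534 (35.98%) against 26.8%. By chromosome, wide regions made up a median of 12.9% ± 1.37 (SD over 19 autosomes) of the list. Chromosome 13 had the highest share (73 of 477 regions, 15.3%) and chromosome 6 the lowest (65 of 651, 9.98%). Per Mb of the stretch that its listed regions span, chromosome 11 held the most wide regions (0.885) and chromosome 6 the fewest (0.449). Of the listed regions on chromosome 11, 14.5% were wide ones. The density of all listed regions was not computed, so these ranks cannot be called particular to wide regions. The stretch that the listed regions span on each chromosome was also divided into 4 equal parts. In the part nearest the start of the coordinates lay 17.5% of wide regions, and in the last 34.2%. For 2.54-kb regions off the hippocampal list these shares were 21.4% and 31.8%. Wide regions that overlap the hippocampal list had 20.9% and 37.7%. Their median distance to the next ventricular region was 22.4 kb, and 30.8% of them had a neighbour within 10 kb. There is 1 list for the tissue, so these positions have no replicate check.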

How the data were processed

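Hydroxymethylated DNA of 8 pooled libraries was counted per region of a merged peak list, and the 4 ventricular ones were analysed here. Raw counts, as deposited, have no header. Build mm9, Bowtie 1.0.0, DESeq2 and CASAVA 1.8.2 appear in the notes on processing by the submitters, with no role stated. No source used here gives the peak caller, merging rule, duplicate handling or input. Starts are 1-based. The commonest width is 2544 bp. Sequences are not printed because no mm9 genome was used.

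Samples were grouped by title. edgeR 4.0.16 (R 4.3.3; TMM, filterByExpr, quasi-likelihood F-test, FDR 0.05) compared doses over the whole table, and DESeq2 1.42.0 was an alternative. An SE is the log2 fold change divided by the root of F. Exact tests compared libraries (smallest p 0.125 for 4 libraries, 0.333 for 2 against 2). CPM per kb uses total counts. TMM and DESeq2-type scaling in edgeR used library sizes summed over the regions that passed filterByExpr. The same sizes served for pools above or below and for fold bounds under these 2 scalings. Scripts were tested on simulated data. Named regions were the 5 widest, the 5 with the highest mean CPM per kb, the 5 smallest p in each direction and the 3 with the highest lowest count (ties by CPM per kb). Width scaling took, for each region, the chance that at least 1 of its counts falls in a random stretch of the commonest width. Members, lists and tests were chosen with earlier results of these data known.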

Additional observations from a re-analysis of the deposited data

Results flagged for a closer look

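The log2 ratio of counts per kb, wide regions against all 2.54-kb regions, was flagged because irradiated pool 1 (-0.87) lay far from the other 3 ventricular libraries, a gap of 0.846 of the whole range. The same holds against 2.54-kb regions off the hippocampal list, where irradiated pool 1 stood at -0.80 and the gap was 0.842 of the range. The check was made over the 4 ventricular libraries of both doses, on 8 measures that share counts, and 2 were flagged; chance flags about 1 in 20. In the same pool 408 of the 2.54-kb regions had 8 counts and 872 had 9, and the part of this step in the ratio was not tested.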

How the results depend on the processing

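The mean log2 ratio of counts per kb, wide against 2.54-kb regions (-0.21), reversed to 0.11 without regions over 20 times the median CPM, to 0.14 against off-list regions, to 0.45 against these without irradiated pool 1, and to 0.27 as a mean of log2(counts per kb + 0.5). With 1 library left out it ranged from -0.30 to 0.015, the latter without irradiated pool 1. The dose difference of the share ranged from -5.43 to 0.978 percentage points and that of the log2 ratio from -0.85 to 0.10, reversed in both without irradiated pool 1. The filled share difference kept its direction, 10.8 to 19.4 percentage points with a library left out. The difference in regions filled in every library (18.8 percentage points) was 10.05 for the narrowest width class and 17.6 to 24.2 with a library left out. Wide regions with both irradiated pools higher (326, 22.0%, list 23.7%) numbered 473 to 631 with a library left out (list 31.1% to 56.9%). Those lower (125, 8.42%, list 5.80%) numbered 260 to 474 (list 12.03% to 22.6%), and 193 under total counts (13.0%, list 8.27%). Except where a library was left out, the cause of these changes was not tested. No region passed for dose under any alternative run. With the replicate number as a block 0 passed and 16 had an unadjusted p under 0.05, against 57 without; same-numbered pools did not deviate together (correlation -0.12), so the numbers were not taken as pairs. The settings for the counts of regions filled in every library and of pools above or below, and the combined setting, were chosen after seeing the data. Low counts limit single regions: in the shallowest library by counts in the list, sham pool 2, the median 2.54-kb region held 0 counts.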
